A study of Mus musculus with 12 samples.

Results

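The genes described here are 42 that drive DNA replication and cell division, chosen by symbol from the 24062 genes of the count tables. All 42 were found. By role they are the 7 genes of the replicative helicase group, 5 of origin licensing and firing, 2 of the replication fork, 4 of nucleotide supply, 5 of G1/S control, 6 mitotic cyclins and kinases, 9 of the spindle and kinetochore, 2 of the anaphase-promoting complex, and the chromosome and proliferation markers Top2a and Mki67. Of the 42, 40 had enough counts to be tested in liver and 29 in gastrocnemius.

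Polyadenylated RNA was sequenced from liver and from gastrocnemius, a calf muscle, of 6 female C57BL/6N mice on chow. The groups are liver R135W, liver WT, gastrocnemius R135W and gastrocnemius WT, with 3 animals each. R135W animals (numbered 5, 7 and 12) carried the R135W substitution on both alleles of Mars2, which encodes the methionyl-tRNA synthetase of mitochondria. They were 9.0, 7.4 and 8.6 weeks old, and the WT animals (6, 8 and 9) were 9.0, 9.0 and 7.4 weeks old.

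A dividing cell first licenses its replication origins by loading the MCM2-7 helicase in G1, then fires them in S phase with the help of CDC45 and the GINS complex. Mitotic kinases, the spindle and the anaphase-promoting complex then separate the copied chromosomes. In adult liver and skeletal muscle most hepatocytes and all muscle fibres rest outside the cycle, and these RNAs are usually scarce; immune and endothelial cells are among those that can divide there. Replication genes are known as targets of E2F factors, and mitotic genes as targets of the DREAM and MuvB complexes, which bind a short element called CHR, with the factor NF-Y at nearby CCAAT boxes.

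The libraries held 20751583 to 30460237 counts each, of which the 42 genes took 3698 to 12017, so that the scarcest of them rest on few counts. Replicates differed beyond counting error, with chi-squared per degree of freedom of 41.7 to 118 in liver and 8.07 to 17.8 in gastrocnemius. Tissue labels fit their markers: hepatocyte markers summed to at least 82659 CPM in liver and at most 677 CPM in gastrocnemius, and muscle fibre markers to at least 142536 CPM in gastrocnemius and at most 1.82 CPM in liver. Mars2 RNA averaged 2.93 ± 0.646 CPM in R135W and 2.77 ± 0.627 CPM in WT livers, and 9.45 ± 0.961 CPM in R135W and 11.7 ± 0.941 CPM in WT muscle (SD, n = 3 each), and passed the test in neither tissue; a missense change need not alter RNA level, so this does not check the labels.

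The promoters of the 6 genes that passed the test in liver are given first, since they show which of these elements each carries. Each window holds 300 bases, 250 before the start site and 50 from it on, from RefSeq on GRCm38.p6, read 5′ to 3′ on the gene's own strand. Capitals mark matches, on either strand, to the E2F motifs TTTCCCGC, TTTCGCGC, TTTGCCGC and TTTGGCGC, the CHR motifs TTTGAA and TTCGAA, and CCAAT. The windows lie at chr8:75109259-75109558 (+) for Mcm5, chr1:128359656-128359955 (-) for Mcm6, chr6:88898731-88899030 (-) for Mcm2, chr17:56303087-56303386 (+) for Uhrf1, chr4:136172024-136172323 (+) for E2f2 and chr4:118437294-118437593 (-) for Cdc20.
Mcm5: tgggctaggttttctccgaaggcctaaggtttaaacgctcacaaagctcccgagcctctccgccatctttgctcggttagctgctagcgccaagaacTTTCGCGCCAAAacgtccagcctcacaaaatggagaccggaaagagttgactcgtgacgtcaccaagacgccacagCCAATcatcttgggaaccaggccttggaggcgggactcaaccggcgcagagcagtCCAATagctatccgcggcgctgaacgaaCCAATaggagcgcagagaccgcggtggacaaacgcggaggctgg
Mcm6: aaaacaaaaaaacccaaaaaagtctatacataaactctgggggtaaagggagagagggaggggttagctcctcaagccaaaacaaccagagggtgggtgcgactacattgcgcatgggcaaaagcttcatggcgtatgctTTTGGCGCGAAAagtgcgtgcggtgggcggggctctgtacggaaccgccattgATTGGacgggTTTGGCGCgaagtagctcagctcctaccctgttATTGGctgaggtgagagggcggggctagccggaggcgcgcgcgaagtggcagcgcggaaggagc
Mcm2: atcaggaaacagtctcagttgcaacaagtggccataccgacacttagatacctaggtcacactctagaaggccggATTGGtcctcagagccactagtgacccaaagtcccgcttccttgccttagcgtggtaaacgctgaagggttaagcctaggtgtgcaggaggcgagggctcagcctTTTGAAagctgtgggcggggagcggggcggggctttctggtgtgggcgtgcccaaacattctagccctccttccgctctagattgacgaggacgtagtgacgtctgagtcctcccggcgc
Uhrf1: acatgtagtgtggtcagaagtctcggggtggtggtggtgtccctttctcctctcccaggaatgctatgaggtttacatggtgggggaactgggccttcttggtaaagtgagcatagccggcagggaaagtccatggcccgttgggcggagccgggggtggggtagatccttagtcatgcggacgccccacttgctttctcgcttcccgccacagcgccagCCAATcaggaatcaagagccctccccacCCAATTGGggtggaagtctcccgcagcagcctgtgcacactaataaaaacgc
E2f2: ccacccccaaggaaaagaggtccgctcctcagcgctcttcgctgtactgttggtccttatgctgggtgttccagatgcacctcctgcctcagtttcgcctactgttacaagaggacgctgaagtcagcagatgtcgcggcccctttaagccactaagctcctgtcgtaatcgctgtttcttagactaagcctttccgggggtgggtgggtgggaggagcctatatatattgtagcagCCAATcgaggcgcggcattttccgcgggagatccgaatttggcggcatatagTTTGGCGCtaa
Cdc20: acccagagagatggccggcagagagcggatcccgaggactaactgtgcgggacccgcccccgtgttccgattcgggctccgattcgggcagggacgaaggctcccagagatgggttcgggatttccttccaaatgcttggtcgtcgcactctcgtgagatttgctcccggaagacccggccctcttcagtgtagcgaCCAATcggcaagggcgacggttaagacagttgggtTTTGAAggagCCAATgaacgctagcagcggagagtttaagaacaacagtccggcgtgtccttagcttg

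Mcm5 and Mcm6 each held a TTTGGCGC and a TTTCGCGC on opposite strands that overlap each other, and Mcm6 a further TTTGGCGC, starting 47 bases before the start site. E2f2 held 1 E2F match, from base 40 after the start, in the window whose start site lies 120 bases from the start of the gene in the count files. A window at an alternative E2f2 start held no E2F match, a CHR match TTTGAA and 3 CCAAT boxes. Cdc20 held a CHR match TTTGAA from 18 bases before the start site, between CCAAT boxes at 53 and 8 bases before it. Mcm2 had a CHR match and a CCAAT match but no E2F match to these letters. The Uhrf1 window shown, at the gene start of the count files, held CCAAT boxes only, of which the pair at the start site overlap, while a window at an alternative Uhrf1 start held TTTCGCGC.

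The table held windows for 34 of the 42 genes, 37 windows in all; Mcm4, Gins1, Gins2, Ccnd1, Ccne2, Ccna2, Aurkb and Tpx2 had none. An E2F motif stood in 7 of 17 windows of replication genes (helicase, licensing, fork and nucleotide supply) and in 1 of 16 windows of mitosis genes, against 2.26% of all 32851 promoter windows of the table. A CHR motif stood in 12 of the 16 mitosis windows and in 3 of the 17 replication windows, against 19.2% of all windows. CCAAT was found in 29 of the 37 windows, against 37.4% of all windows. A match is a description of the letters and was not tested for binding.

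In liver, 6 of the 40 tested genes were higher in R135W and 0 were lower, by edgeR's quasi-likelihood test with Benjamini-Hochberg adjustment over all genes and a threshold of 0.05. Among all 13935 genes tested in liver, 2.76% were higher and 0.524% lower. The 6 genes were the helicase subunits Mcm2, Mcm5 and Mcm6, the maintenance methylation factor Uhrf1, the transcription factor E2f2 and the anaphase activator Cdc20. In bulk tissue, a difference in the number of cells of a type and one in RNA per cell cannot be told apart. The log2 fold change (R135W over WT) was above 0 for 34 of the 40 genes, with a median of 0.72, where all tested genes had a median of -0.01. In 16 of the 40 all R135W livers lay above all WT livers and in 2, Mcm10 and Ccne2, all lay below, against 13.8% and 9.98% of all tested genes. The 6 calls depend on which animals enter: 0 of the 42 passed without R135W animal 7, without WT animal 8 or without WT animal 9, Mcm5 alone passed without R135W animal 12, 3 genes without WT animal 6 and 10 without R135W animal 5, while over all genes 384 were higher with all 6 livers and 81 to 242 in these fits of 5. Over these fits and the other alternatives the log2 fold change lay between 0.997 and 1.30 for Mcm2, 1.68 and 2.22 for Mcm5, 0.88 and 1.22 for Mcm6, 1.82 and 2.46 for Uhrf1, 1.17 and 1.69 for E2f2, and 2.43 and 3.43 for Cdc20, with adjusted p up to 0.157. With age in weeks as a covariate Mcm5 and Cdc20 passed; the other 4 had fold changes of 1.17 for Mcm2, 1.08 for Mcm6, 2.18 for Uhrf1 and 1.42 for E2f2, at adjusted p of 0.0533 to 0.0719. With DESeq2 13 genes passed.

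**Figure D1:**
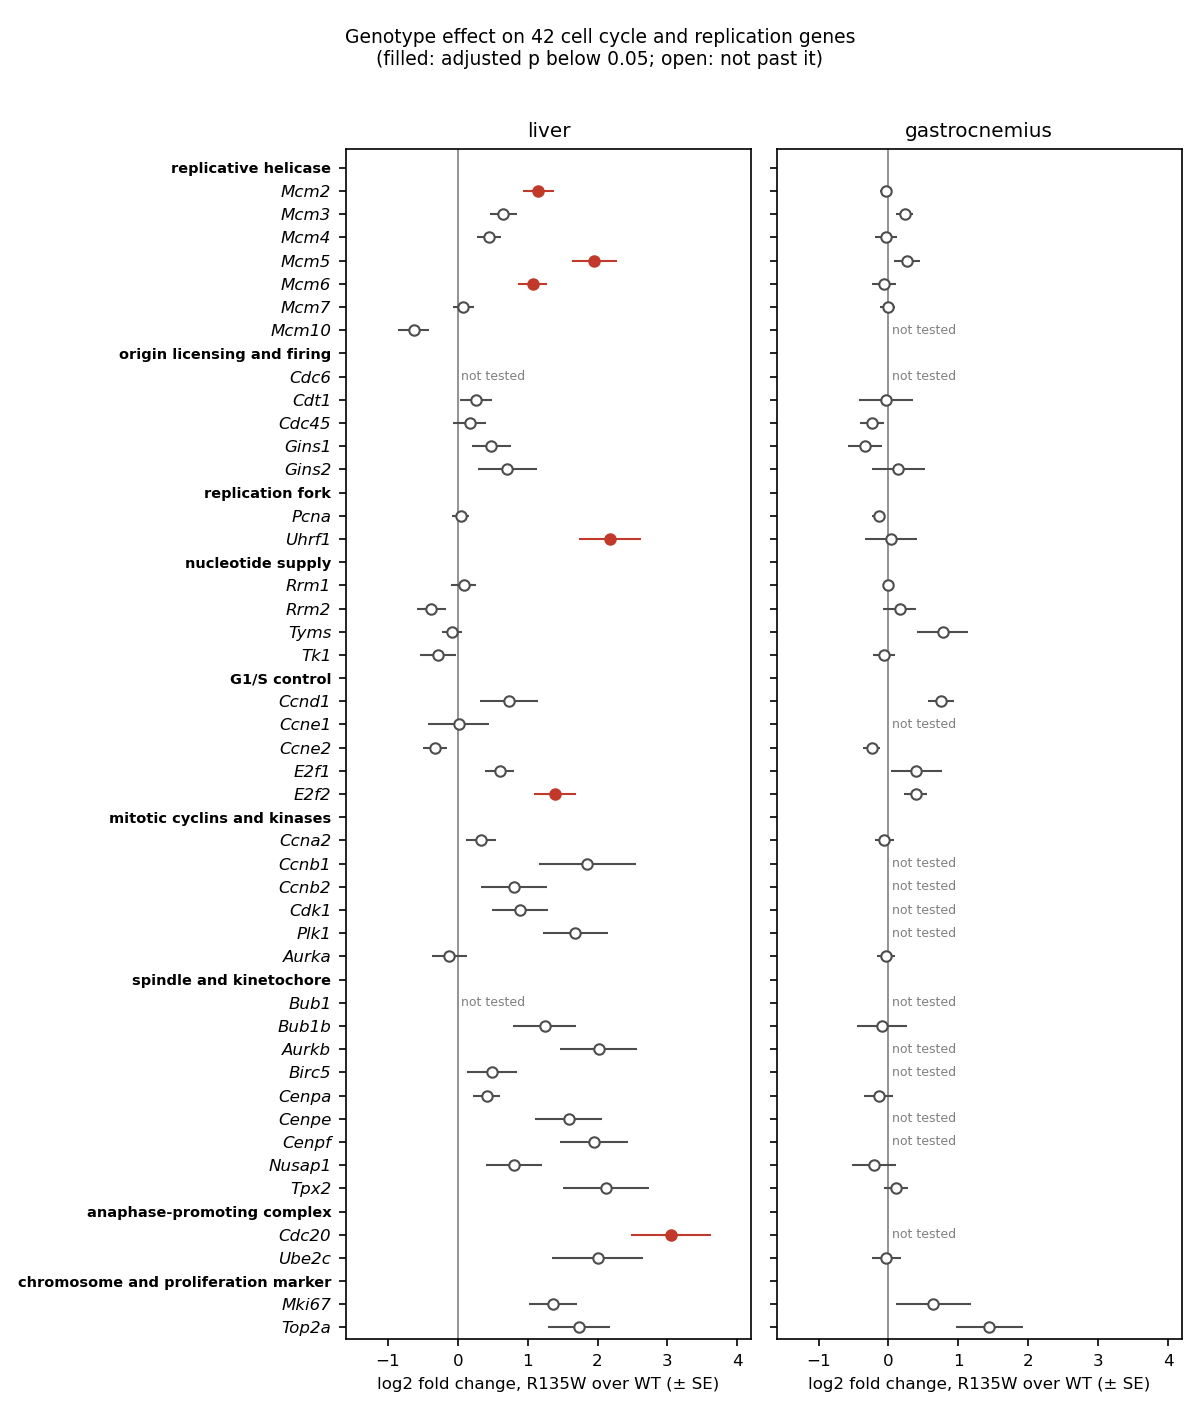
Log2 fold change of R135W over WT (horizontal axis, ± SE) for the 42 genes, grouped by role, in liver (left) and gastrocnemius (right); filled points passed an adjusted p of 0.05. In liver 34 of 40 tested genes lie right of 0 and 6 are filled; in gastrocnemius 13 of 29 lie right of 0 and 0 are filled.

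The helicase group is the MCM2-7 ring, which unwinds DNA ahead of the fork, and MCM10, which helps to start the active helicase. Of its 7 genes, 3 passed in liver. Mcm5 had 4.27, 6.58 and 7.27 CPM (the count scaled to the library size, with TMM factors) in R135W livers (animals 5, 7 and 12), against 2.11, 0.895 and 1.66 CPM in WT livers (animals 6, 8 and 9). The groups did not overlap, and R135W animal 5 was the lowest of its group. The log2 fold change was 1.95 (SE 0.32, adjusted p = 0.0182).

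Mcm2 had 4.62, 5.91 and 7.00 CPM in R135W livers, against 2.82, 2.98 and 2.11 CPM in WT livers. Animals 5 and 12 were the lowest and the highest of the R135W livers for this gene, as for Mcm5, and all R135W livers lay above all WT livers. Its log2 fold change was 1.15 (SE 0.22, adjusted p = 0.0298). Mcm6 had 8.21, 9.63 and 12.6 CPM in R135W livers, against 5.79, 4.13 and 4.58 CPM in WT livers. Here too animal 12 was highest and the groups did not overlap. The log2 fold change of Mcm6 was 1.07 (SE 0.21, adjusted p = 0.0297).

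The other ring subunits did not pass. Mcm3 stood at 7.61 ± 0.624 CPM in R135W and 4.84 ± 1.18 CPM in WT livers (SD, n = 3 each), with log2 fold change 0.65 (SE 0.20, adjusted p = 0.134), and Mcm4 had 0.44 (SE 0.17, adjusted p = 0.231); for both, all R135W livers lay above all WT livers. Mcm7, at 15.7 ± 0.489 CPM in R135W and 14.9 ± 2.97 CPM in WT livers, had a log2 fold change of 0.08 (SE 0.16). Mcm10 stood on the other side of 0. It had 14.1, 26.4 and 23.6 CPM in R135W livers, against 37.7, 28.5 and 32.8 CPM in WT livers. All R135W livers lay below all WT livers, animal 5 farthest, but the log2 fold change of -0.63 (SE 0.22, adjusted p = 0.189) did not pass.

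Per length, in TPM (counts scaled by gene length and to a fixed sum per library, with the deposited gene lengths), the 6 ring subunits were closer to each other in R135W livers than in WT livers. The highest subunit, Mcm7, stood at 5.12, 4.34 and 3.82 times the lowest in R135W livers and at 12.4, 20.2 and 11.8 times the lowest in WT livers. The lowest subunit was Mcm5 in all WT livers and in R135W animal 5, and Mcm4 in the other R135W livers. Mcm5 averaged 3.51 ± 1.03 TPM in R135W and 0.823 ± 0.321 TPM in WT livers, and Mcm7 12.99 ± 0.690 TPM in R135W and 11.3 ± 2.19 TPM in WT livers (SD, n = 3 each). In gastrocnemius the same ratio, again Mcm7 over Mcm5, was 11.1, 10.6 and 12.1 in R135W and 13.5, 13.5 and 14.0 in WT animals. These ratios were not tested.

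**Figure D2:**
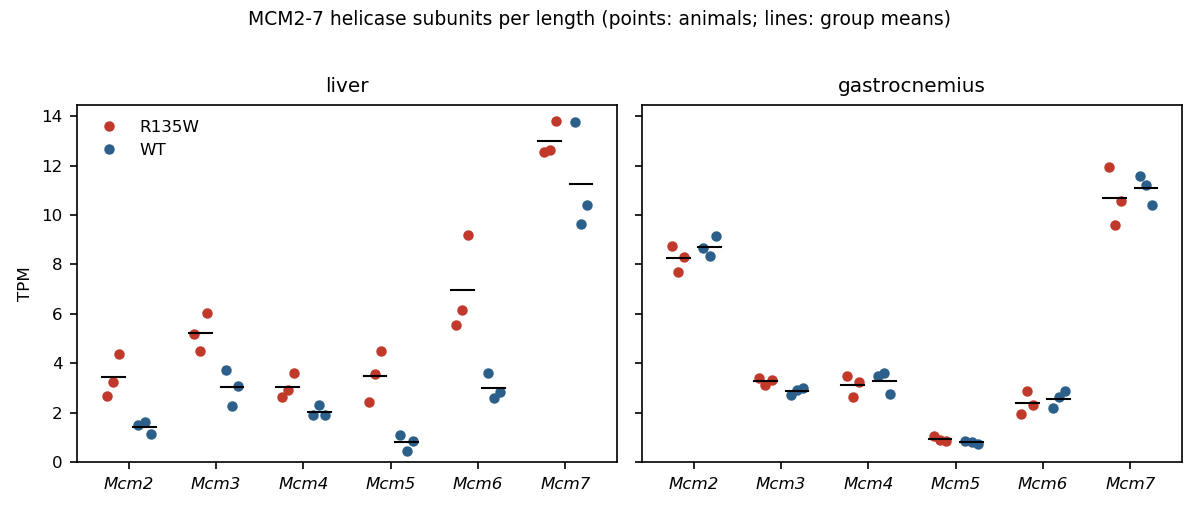
TPM of the 6 subunits of the MCM2-7 helicase (vertical axis) in liver (left) and gastrocnemius (right); points are animals, R135W left of WT, and lines are group means (n = 3). In liver Mcm5 averages 3.51 TPM in R135W and 0.823 TPM in WT, while Mcm7 averages 12.99 TPM in R135W and 11.3 TPM in WT.

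Among the genes of origin licensing and firing, 0 of 4 tested in liver passed, and all 4 had log2 fold changes above 0, from 0.17 to 0.71. Gins1, a subunit of the GINS complex that joins the helicase, had the smallest p, with 3.53 ± 0.529 CPM in R135W and 2.53 ± 0.956 CPM in WT livers and log2 fold change 0.48 (SE 0.28, adjusted p = 0.410). Gins2 had 0.71 (SE 0.42), and 11.4% of its exon length is shared with Gse1. The loader Cdt1 and the helicase partner Cdc45 had 0.26 (SE 0.23) and 0.17 (SE 0.23). Cdc6, the other loader of MCM2-7, had too few counts for the test: 10, 16 and 30 counts in R135W livers, against 5, 4 and 7 in WT livers.

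Both fork genes act at replicating DNA, Pcna as the sliding clamp of the polymerases and Uhrf1 as the factor that brings the maintenance methyltransferase to newly copied DNA. Uhrf1 had 1.29, 2.81 and 2.69 CPM in R135W livers, against 0.670, 0.597 and 0.243 CPM in WT livers. Animal 5 had less than the other R135W livers, and the groups did not overlap. Its log2 fold change was 2.18 (SE 0.44, adjusted p = 0.0348), on 34 to 88 counts in R135W and 6 to 14 counts in WT livers. Pcna, which also serves DNA repair, stood at 30.9 ± 3.71 CPM in R135W and 30.0 ± 0.540 CPM in WT livers, with log2 fold change 0.04 (SE 0.12, adjusted p = 0.892).

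Nucleotide supply genes, the ribonucleotide reductase subunits Rrm1 and Rrm2, the thymidylate synthase Tyms and the thymidine kinase Tk1, gave 0 of 4 passing in liver. Their median log2 fold change was -0.18. Rrm2 had the smallest p, with 6.55 ± 1.28 CPM in R135W and 8.51 ± 1.73 CPM in WT livers and log2 fold change -0.38 (SE 0.21, adjusted p = 0.391). Tk1, which shares 6.43% of its exon length with Afmid, varied between WT livers. It had 47.1, 55.6 and 48.5 CPM in R135W livers, against 35.0, 81.7 and 67.1 CPM in WT livers, so that the R135W values lay within the WT range. Tyms and Rrm1 had log2 fold changes of -0.08 (SE 0.14) and 0.08 (SE 0.17).

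G1/S control covers cyclin D1 and the E cyclins, partners of the kinases that release E2F, and the E2F factors themselves. E2f2, an activator E2F, had 2.08, 2.13 and 1.74 CPM in R135W livers, against 1.05, 0.696 and 0.526 CPM in WT livers. For this gene R135W animal 12, not animal 5, was lowest, and the groups did not overlap. The log2 fold change was 1.39 (SE 0.30, adjusted p = 0.0451). E2f1 was 3.76 ± 0.711 CPM in R135W and 2.47 ± 0.223 CPM in WT livers, with log2 fold change 0.60 (SE 0.21, adjusted p = 0.182).

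Ccnd1 (cyclin D1) differed widely within both genotypes. It had 161, 66.6 and 97.3 CPM in R135W livers, against 51.3, 36.8 and 108 CPM in WT livers. R135W animal 5 was highest and WT animal 9 lay above R135W animals 7 and 12, so that the groups overlapped and the log2 fold change of 0.73 (SE 0.42, adjusted p = 0.408) did not pass. Ccne2 (cyclin E2), which shares 53.9% of its exon length with Ints8 on the other strand, stood at 3.34 ± 0.325 CPM in R135W and 4.19 ± 0.0662 CPM in WT livers, with log2 fold change -0.33 (SE 0.17, adjusted p = 0.359). Ccne1 (cyclin E1) stood at 0.783 ± 0.223 CPM in R135W and 0.774 ± 0.453 CPM in WT livers.

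**Figure D3:**
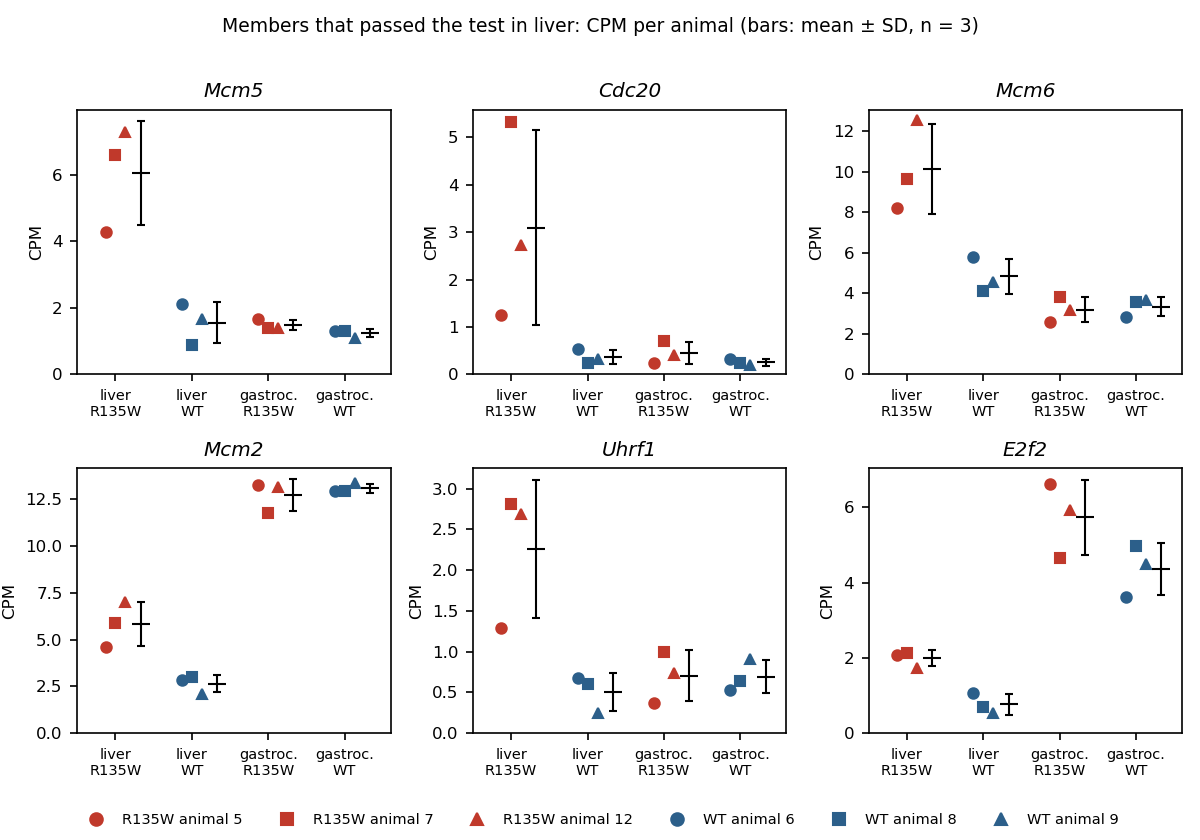
CPM of the 6 genes that passed the test in liver (vertical axes) for each animal, in liver and in gastrocnemius, R135W left of WT; bars give the mean ± SD (n = 3). In liver all R135W points lie above all WT points for each gene; in gastrocnemius the groups overlap for 5 of the 6, and for Mcm5 the R135W points, 1.40 to 1.66 CPM, lie just above the WT points, 1.10 to 1.31 CPM.

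Genes of mitosis and of replication are set side by side here without a test of their difference. Over the 18 tested genes of the 4 mitotic roles, 17 had a log2 fold change above 0, the median was 1.47 and 1 passed; over the 17 tested replication genes 13 were above 0, the median was 0.26 and 4 passed. The gene that passed was Cdc20, which activates the anaphase-promoting complex toward securin and cyclin B. Cdc20 had 1.25, 5.33 and 2.72 CPM in R135W livers, against 0.527, 0.249 and 0.324 CPM in WT livers. Animal 7 had several times the level of animal 5, yet all R135W livers lay above all WT livers. The log2 fold change was 3.05 (SE 0.57, adjusted p = 0.0278), on 33 to 110 counts in R135W and 5 to 11 counts in WT livers; 2.91% of its exon length is shared with Elovl1. Ube2c, the ubiquitin-conjugating enzyme of the same complex, had 1.06, 3.63 and 1.96 CPM in R135W livers, against 1.15, 0.348 and 0.162 CPM in WT livers. R135W animal 5 lay below WT animal 6, and the log2 fold change of 2.001 (SE 0.65, adjusted p = 0.160) did not pass.

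Top2a (topoisomerase II alpha, which untangles sister chromatids) and Mki67 (the Ki-67 protein of dividing cells) missed the threshold narrowly. Top2a had 1.93, 6.63 and 5.93 CPM in R135W livers, against 1.87, 1.39 and 1.09 CPM in WT livers. Mki67 had 3.25, 7.41 and 7.27 CPM in R135W livers, against 3.16, 2.04 and 1.78 CPM in WT livers. For both genes R135W animal 5 lay just above WT animal 6 and far below R135W animals 7 and 12. Their log2 fold changes were 1.74 (SE 0.44, adjusted p = 0.0808) and 1.36 (SE 0.35, adjusted p = 0.0808), and both passed without R135W animal 5.

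Spindle and kinetochore genes gave 0 of 8 passing in liver, 8 of 8 above 0, and a median log2 fold change of 1.41. Cenpf, a kinetochore protein, had the smallest p. It had 0.567, 1.45 and 1.74 CPM in R135W livers, against 0.431, 0.298 and 0.243 CPM in WT livers. The groups did not overlap, animal 5 being again the lowest R135W liver, and the log2 fold change was 1.95 (SE 0.49, adjusted p = 0.0744). The largest value of the role was that of the spindle assembly factor Tpx2, at 2.12 (SE 0.62, adjusted p = 0.119), followed by the chromosomal passenger kinase Aurkb at 2.02 (SE 0.55, adjusted p = 0.0995), the kinetochore motor Cenpe at 1.59 (SE 0.48) and the checkpoint kinase Bub1b at 1.24 (SE 0.45). Nusap1, a microtubule binder that shares 7.03% of its exon length with Oip5, had 0.80 (SE 0.40), the passenger subunit Birc5 0.49 (SE 0.36) and the centromeric histone Cenpa 0.41 (SE 0.19). Bub1 had 3, 10 and 22 counts in R135W livers, against 4, 5 and 3 in WT livers, too few for the test.

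Among the mitotic cyclins and kinases 0 of 6 passed in liver. Plk1, the polo-like kinase, had the smallest p, with 0.794, 2.91 and 1.68 CPM in R135W livers, against 0.574, 0.497 and 0.567 CPM in WT livers. The groups did not overlap, the WT livers lay close together, and the log2 fold change was 1.68 (SE 0.47, adjusted p = 0.104). Ccnb1 and Ccnb2, the B cyclins that activate CDK1 at mitotic entry, had 1.85 (SE 0.69) and 0.81 (SE 0.47), and Cdk1 itself 0.88 (SE 0.40). The cyclin A gene Ccna2, which shares 13.4% of its exon length with Exosc9, had 0.33 (SE 0.22), and the centrosomal kinase Aurka -0.12 (SE 0.25), the only mitotic value below 0.

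The mitosis genes shared an order of the animals. Of the 19 mitosis genes, R135W animal 5 had the lowest level of its group in 17 and animal 7 the highest in 15, while WT animal 6 had the highest level of its group in 16 and WT animal 9 the lowest in 11. The summed level of the 19 genes was 32.8, 72.4 and 57.8 CPM in R135W livers and 35.7, 26.5 and 22.6 CPM in WT livers, so that R135W animal 5 lay below WT animal 6. The replication genes shared only part of it. Of these 18, animal 5 was lowest of the R135W livers in 15, but animal 12 was highest in 12; among WT livers animal 6 was highest in 9 and lowest in 5, and animal 8 was lowest in 9 and highest in 7. The 5 genes of G1/S control had no such order, with animals 5 and 7 each the lowest R135W liver in 2. The 18 replication genes summed to 166, 196 and 202 CPM in R135W livers and 172, 204 and 191 CPM in WT livers. The groups overlapped.

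The youngest R135W liver (animal 7) was the highest of its group for most mitosis genes and the youngest WT liver (animal 9) the lowest of its group. At 7.4 weeks R135W animal 7 was above WT animal 9 in 33 of the 40 genes, with a median log2 difference of 1.13, on CPM plus 0.1. At 9.0 weeks R135W animal 5 was above the mean of WT animals 6 and 8 in 24 of the 40 genes, with a median of 0.22. All tested genes had medians of 0.01 at both ages, and 50.7% and 50.9% of them were higher in R135W. With 1 R135W liver at each age these differences carry no test.

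**Figure D4:**
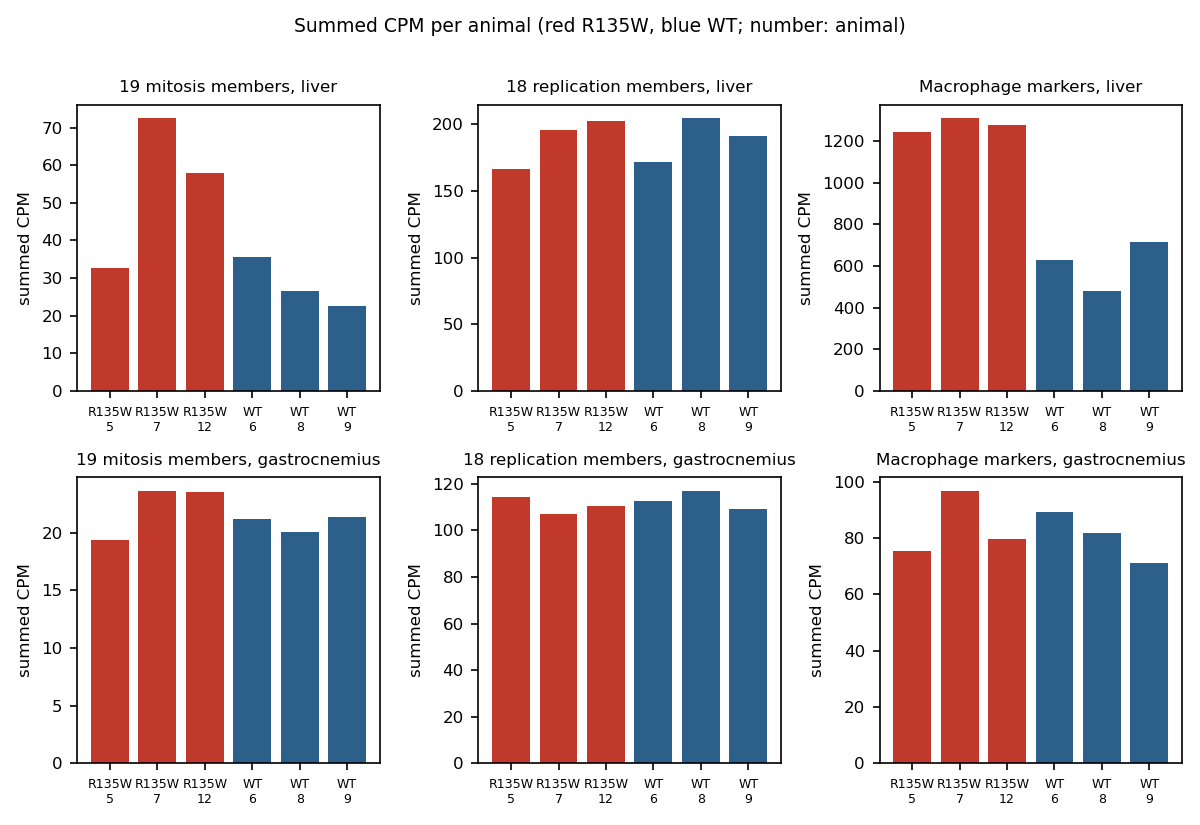
Summed CPM (vertical axes) per animal of the 19 mitosis genes, the 18 replication genes and 17 macrophage markers in liver (top) and gastrocnemius (bottom); red bars are R135W, blue bars WT. In liver R135W animal 5 has 32.8 CPM over the mitosis genes, below WT animal 6 at 35.7 CPM, while its macrophage sum of 1243 CPM is near those of the other R135W livers.

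Markers of other cell types were read in the same livers. The 17 macrophage markers summed to between 1243 and 1309 CPM in R135W and between 480 and 715 CPM in WT livers, and 13 of the 17 were higher in R135W, among them the F4/80 gene, listed as Emr1, at 1.53 (SE 0.17) and the scavenger receptor Marco at 2.12 (SE 0.24); none was at 0 counts in any liver. R135W animal 5 did not stand apart in this sum. Of 9 tested monocyte and dendritic cell markers 4 were higher, with sums of 27.8 to 33.0 CPM in R135W and 14.5 to 17.5 CPM in WT livers. Of 10 tested T and NK cell markers 1 was higher, with sums of 11.1 to 12.8 CPM in R135W and 7.26 to 8.28 CPM in WT livers. Of 22 interferon-stimulated genes 20 were higher, and R135W animal 5 had the lowest sum of the R135W livers, 1392 CPM, beside 1976.5 and 2058 CPM in animals 7 and 12, with 614 to 652 CPM in WT livers. Neutrophil markers passed for 0 of 5 tested, but all 5 had log2 fold changes above 0, with a median of 1.11, and R135W livers all above WT livers. The 9 found summed to 12.3, 18.98 and 11.3 CPM in R135W livers and to 5.46, 7.26 and 8.71 CPM in WT livers; 1 of them was at 0 counts in WT animal 6. B and plasma cell markers passed for 0 of 8 tested, of which 8 were above 0 with a median of 0.64 and 3 had all R135W livers above all WT livers; their sums, 264 to 379 CPM in R135W and 223 to 285 CPM in WT livers, overlapped. Of 11 stellate cell and fibroblast markers 1 was higher, and of 11 endothelial and 6 cholangiocyte markers 0. The 11 hepatocyte markers, 0 of which passed, summed to between 82659 and 89012 CPM in R135W and between 104285 and 105963 CPM in WT livers. The part of these cell types in the values above was not tested.

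Red cell genes had their lowest and highest sums in the same animals. The 10 erythroid markers found, globins among them, summed to 272, 762 and 467 CPM in R135W livers (animals 5, 7 and 12) and to 726, 468 and 312 CPM in WT livers (animals 6, 8 and 9). Hba-a1 and Hba-a2 have identical counts and both enter this sum. R135W animal 5 and WT animal 9 were lowest and R135W animal 7 and WT animal 6 highest, as for most mitosis genes, and 0 of the 7 tested markers differed between genotypes. The precursor marker Gata1 was at or near 0, at no more than 0.0917 CPM in any liver. The part of red cells or their precursors in the mitosis genes was not tested.

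In gastrocnemius, 0 of the 29 tested genes passed in either direction, where 0.542% of all 13826 tested genes were higher and 0.333% lower; 3 of the 29 had an unadjusted p under 0.05, as did 1595 of all tested genes, and DESeq2 called 1 of the 29. Of the 29, 13 had a log2 fold change above 0, and the median was -0.03. In 3 all R135W animals lay above all WT animals and in 0 below, against 8.24% and 8.40% of all tested genes. The 13 genes left untested include 10 of the 19 mitosis genes, and Bub1, Ccnb1, Aurkb and Cenpf had no more than 3 counts in any WT muscle.

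The genes that passed in liver had these values in gastrocnemius. Mcm2 averaged 12.7 ± 0.854 CPM in R135W and 13.1 ± 0.252 CPM in WT animals (SD, n = 3 each), a log2 fold change of -0.04 (SE 0.08). Mcm6 had -0.06 (SE 0.18), Mcm5 0.26 (SE 0.19), Uhrf1 0.04 (SE 0.37) and E2f2 0.39 (SE 0.17, adjusted p = 0.408). Cdc20, untested, had 6, 19 and 11 counts in R135W and 8, 7 and 5 counts in WT animals.

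Ccnd1 came closest to the threshold in gastrocnemius. It had 7.08, 12.1 and 9.89 CPM in R135W animals, against 6.51, 5.39 and 5.40 CPM in WT animals. All R135W animals lay above all WT animals, animal 5 only just. The log2 fold change was 0.75 (SE 0.18, adjusted p = 0.127); it passed with DESeq2 and when R135W animal 5 was left out. Endothelial markers summed to between 337 and 360 CPM in R135W and between 271 and 298 CPM in WT muscle. Of 9 tested, 1 was higher, the receptor gene Kdr, at 0.77 (SE 0.08). Of 8 muscle satellite cell markers 0 passed and 6 were above 0, with a median log2 fold change of 0.39. Their sums, 53.7, 51.4 and 43.7 CPM in R135W and 37.9, 33.0 and 47.3 CPM in WT muscle, overlapped. The part of endothelial or satellite cells in the Ccnd1 values was not tested.

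Top2a had 0.416, 1.37 and 1.185 CPM in R135W muscle, against 0.203, 0.319 and 0.570 CPM in WT muscle. Animal 5 lay within the WT range while animals 7 and 12 lay above it, and the log2 fold change was 1.44 (SE 0.48, adjusted p = 0.278). Cenpf, untested, had 1, 12 and 14 counts in R135W and 1, 2 and 1 counts in WT muscle, and Cenpe 1, 10 and 14 counts in R135W and 6, 5 and 2 counts in WT muscle. Mki67 had 0.250, 1.29 and 1.15 CPM in R135W muscle and 0.854, 0.639 and 0.266 CPM in WT muscle. As in liver, animal 5 held the lowest R135W value for most mitosis genes, 14 of 19, though the sums over the 19, 19.3 to 23.6 CPM in R135W and 20.02 to 21.4 CPM in WT muscle, overlapped. Interferon-stimulated genes, 11 of 19 higher in R135W muscle, summed to 125, 199 and 176 CPM in R135W animals 5, 7 and 12 and to 70.2 to 83.0 CPM in WT muscle; their part in these values was not tested.

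Whether the effect of R135W differed between the tissues was tested as the interaction of genotype and tissue over all 12 libraries. It passed for 0 of 41 tested genes by edgeR, where 0.0973% of all 15414 genes passed upward, toward liver, and 0.0324% downward. An unadjusted p under 0.05 was reached by 10 of the 41 and by 1534 of all genes. The smallest p belonged to Mcm2, with a difference of 1.19 in log2 fold change, liver minus gastrocnemius (SE 0.23, adjusted p = 0.0869), then Mcm5 at 1.68 (SE 0.40, adjusted p = 0.152) and Mcm6 at 1.13 (SE 0.29, adjusted p = 0.181). With DESeq2 these 3 passed. Over the 29 genes tested in both tissues, 24 had a log2 fold change above 0 in liver and 13 in gastrocnemius, with medians of 0.60 and -0.03.

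Levels in WT animals were compared between the tissues. Of 35 genes tested, 17 were higher in liver than in gastrocnemius and 7 lower, where 40.9% of all 14858 tested genes were higher and 40.6% lower. For each of the 24, all values of one tissue lay above all values of the other; values are in the order of animals 6, 8 and 9, and fold changes are liver over gastrocnemius.

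Mcm10, the helicase activation factor, was farthest apart. It had 37.0, 28.0 and 31.9 CPM in liver, against 0.122, 0.249 and 0.151 CPM in gastrocnemius, where it rests on 3 to 7 counts. Its log2 fold change was 7.47 (SE 0.23, adjusted p = 2.2e-09). Mcm2 went the other way, with 2.77, 2.93 and 2.05 CPM in liver, against 12.978, 12.975 and 13.3 CPM in gastrocnemius, and log2 fold change -2.35 (SE 0.16). Mcm6 had 5.69, 4.05 and 4.45 CPM in liver, against 2.82, 3.55 and 3.63 CPM in gastrocnemius, a small difference of 0.50 (SE 0.19, adjusted p = 0.0340). The helicase thus had members on both sides, as did licensing and firing. Cdt1 had 2.87, 2.24 and 2.52 CPM in liver, against 0.694, 0.960 and 0.378 CPM in gastrocnemius, at 1.90 (SE 0.30). Cdc45 had 1.60, 1.56 and 1.54 CPM in liver, against 3.63, 3.38 and 2.99 CPM in gastrocnemius, at -1.09 (SE 0.18). At the fork the clamp Pcna differed little. It had 29.2, 29.1 and 29.8 CPM in liver, against 26.0, 24.1 and 20.7 CPM in gastrocnemius, at 0.31 (SE 0.11).

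Nucleotide supply split between the subunits of ribonucleotide reductase. Rrm2 had 6.96, 10.2 and 7.80 CPM in liver, against 0.735, 1.28 and 1.06 CPM in gastrocnemius, at 3.01 (SE 0.24). Rrm1 had 7.66, 9.22 and 7.72 CPM in liver, against 35.02, 35.16 and 35.37 CPM in gastrocnemius, at -2.10 (SE 0.11). Both thymidine enzymes were higher in liver. Tyms had 6.06, 6.78 and 6.10 CPM in liver, against 0.204, 0.462 and 0.453 CPM in gastrocnemius, at 4.04 (SE 0.26). Tk1 had 34.4, 80.2 and 65.3 CPM in liver, against 5.51, 7.89 and 8.05 CPM in gastrocnemius, at 3.06 (SE 0.30). In G1/S control cyclin D1 and E2f1 were higher in liver and E2f2 lower. Ccnd1 had 50.3, 36.2 and 105 CPM in liver, against 6.53, 5.40 and 5.37 CPM in gastrocnemius, at 3.47 (SE 0.37). E2f1 had 2.68, 2.29 and 2.28 CPM in liver, against 0.571, 0.391 and 0.491 CPM in gastrocnemius, at 2.31 (SE 0.24). E2f2 had 1.03, 0.683 and 0.512 CPM in liver, against 3.63, 4.98 and 4.46 CPM in gastrocnemius, at -2.56 (SE 0.27). The E cyclins also stood on opposite sides. Ccne1 had 0.470, 0.537 and 1.26 CPM in liver, against 0.204, 0.355 and 0.265 CPM in gastrocnemius, at 1.47 (SE 0.47). Ccne2 had 4.18, 4.10 and 4.02 CPM in liver, against 7.96, 8.11 and 6.46 CPM in gastrocnemius, at -0.87 (SE 0.15). As 53.9% of its exon length is shared with Ints8, the Ccne2 counts may hold fragments of Ints8. The part of Ints8 in this difference was not tested.

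Among mitosis genes 7 were higher in liver and 2 lower. Birc5 had 1.22, 2.34 and 1.38 CPM in liver, against 0.0816, 0.0355 and 0.151 CPM in gastrocnemius, at 4.13 (SE 0.48). Cdk1 had 2.12, 1.27 and 1.06 CPM in liver, against 0.163, 0.0711 and 0.113 CPM in gastrocnemius, at 3.63 (SE 0.44). Both rest on few counts in gastrocnemius, 1 to 4 for Birc5 and 2 to 4 for Cdk1. Mki67 had 3.10, 2.001 and 1.73 CPM in liver, against 0.857, 0.640 and 0.265 CPM in gastrocnemius, at 1.95 (SE 0.39). Top2a had 1.83, 1.37 and 1.06 CPM in liver, against 0.204, 0.320 and 0.567 CPM in gastrocnemius, at 1.93 (SE 0.38). WT animal 6 was the highest liver for both of these markers, as it was for Cdk1, while animal 8 was highest for Birc5. Ccnb2 had 1.65, 0.634 and 0.866 CPM in liver, against 0.408, 0.284 and 0.227 CPM in gastrocnemius, at 1.76 (SE 0.43). Cenpa had 6.06, 4.15 and 5.36 CPM in liver, against 2.08, 1.88 and 1.78 CPM in gastrocnemius, at 1.44 (SE 0.20). Plk1 had the smallest difference of the 7. It had 0.564, 0.488 and 0.551 CPM in liver, against 0.408, 0.249 and 0.227 CPM in gastrocnemius, at 0.87 (SE 0.34). The genes lower in liver were Ube2c and Tpx2. Ube2c had 1.13, 0.342 and 0.158 CPM in liver, against 3.02, 3.06 and 3.55 CPM in gastrocnemius, at -2.59 (SE 0.47). Tpx2 had 0.799, 0.293 and 0.158 CPM in liver, against 2.08, 2.20 and 2.42 CPM in gastrocnemius, at -2.45 (SE 0.42).

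Some calls of this tissue comparison depended on single animals. That of Mcm6 was lost without WT animal 6 or 9, and that of Ccne1 without WT animal 9. Those of Pcna and Plk1 were lost without WT animal 8 or 9. With the animal entered as a block Mcm6 and Plk1 did not pass and Gins1 did. Plk1 also did not pass with DESeq2 or with no filter. Of the 6 genes higher in R135W liver, Mcm2 and E2f2 were thus lower in WT liver than in WT muscle and Mcm6 higher. Cdc20 was too scarce for this test, and Mcm5 and Uhrf1 did not pass, at 0.30 (SE 0.31) and -0.52 (SE 0.40).

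**Figure D5:**
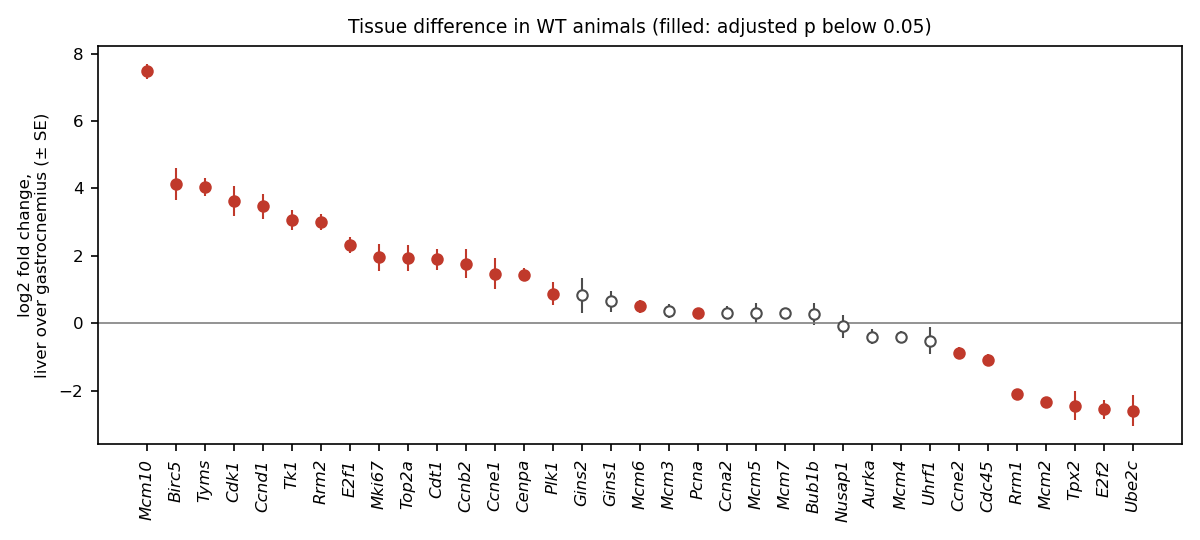
Log2 fold change of liver over gastrocnemius in WT animals (vertical axis, ± SE) for the 35 genes tested, in order; filled points passed an adjusted p of 0.05. Mcm10 stands far above the others at 7.47, and Mcm2, E2f2, Tpx2, Ube2c, Rrm1, Cdc45 and Ccne2 are the filled points below 0.

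Per length, Tk1, Ccnd1 and Pcna were the highest of the 42 genes in liver, with means of 72.7, 56.8 and 48.8 TPM in R135W and 81.4, 31.2 and 43.2 TPM in WT livers. In R135W livers Tk1, at 67.6 to 75.4 TPM, lay above Pcna, at 39.9 to 58.0 TPM, while Ccnd1, at 32.6 to 83.6 TPM, spanned both. In WT livers Tk1, at 46.2 to 109 TPM, lay above Pcna, at 42.6 to 44.1 TPM, and Ccnd1, at 17.7 to 51.5 TPM, overlapped both. At the low end Bub1 and Cenpf had 0.196 and 0.225 TPM in R135W livers and 0.0784 and 0.0528 TPM in WT livers. The median gene stood at 2.62 TPM in R135W and 1.31 TPM in WT livers, and at 0.803 TPM in R135W and 0.787 TPM in WT muscle. A mean above 1 TPM was reached by 35 of the 42 genes in R135W and 23 in WT livers, and by 20 in each genotype in muscle. These medians and counts were not set beside those of all genes, and TPM carries no TMM factor. Tyms, for example, averaged 3.17 TPM in R135W and 3.08 TPM in WT livers, but 6.09 CPM in R135W and 6.45 CPM in WT livers. The part of scaling in the TPM differences between genotypes was not tested.

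Other genes of the same pathways passed in liver about as often as all tested genes, of which 2.76% were higher. Of 66 further mitosis genes, 48 were tested, 39 had a log2 fold change above 0 with a median of 0.55, and 1 was higher, Incenp, the scaffold of the chromosomal passenger complex, at 0.98 (SE 0.21, adjusted p = 0.0458). Of 50 further replication genes, 47 were tested with a median of 0.15, and 1 was higher, the DNA ligase Lig1 of lagging-strand synthesis, at 0.88 (SE 0.18, adjusted p = 0.0393). Of 28 cell cycle transcription factors and kinases, 27 were tested with a median of 0.06, and 1 was higher, Foxm1, the factor that activates mitotic genes with MuvB, at 2.08 ± 0.707 CPM in R135W and 0.515 ± 0.113 CPM in WT livers, with log2 fold change 2.01 (SE 0.35, adjusted p = 0.0219). Of 20 cell cycle inhibitors, 17 were tested, 0 passed, and the median was 0.01.

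In gastrocnemius 38 of the further mitosis genes, 45 of the further replication genes, 23 of the factors and kinases and 18 of the inhibitors were tested; 3 genes were lower and 0 higher, where 0.333% of all tested genes were lower and 0.542% higher. They were Pole, the catalytic subunit of the leading-strand polymerase, at -0.66 (SE 0.12, adjusted p = 0.0422), Tfdp2, an E2F partner, at -0.50 (adjusted p = 0.0369), and Rbl2, the pocket protein p130 that holds cells in quiescence, at -0.37 (adjusted p = 0.0308). The medians over the further mitosis genes and the further replication genes were 0.04 and -0.04.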

How the data were processed

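Poly(A) RNA of 12 libraries was read as 100-base pairs. Per the file headers, the authors ran featureCounts 1.5.2 on the UCSC gene models of mm10 to give raw counts of read pairs per symbol, without a strand option, primary alignments only, and a fragment overlapping several genes counted for each. The submitters' processing notes name STAR 2.4.0 as aligner. These deposited counts are neither normalised nor pooled. The deposited gene length, in bases, served only for TPM.

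From these counts, with R 4.3.3, edgeR 4.0.16 (TMM, filterByExpr, quasi-likelihood F test) compared R135W with WT within each tissue (6 libraries), tissues within WT (6), and the interaction over all 12. Benjamini-Hochberg adjustment ran over all tested genes, threshold 0.05. Each SE was taken from the fold change and its F statistic (fold change over root F). CPM uses TMM-scaled library sizes; floors are 3 counts. The test was checked on simulated data. Positions and exon overlaps come from the files' annotation (mm10); promoters from RefSeq (GRCm38.p6).

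The 42 genes and all lists were chosen with earlier results of these data known. Every one of the 42 is accounted for in the liver comparison of genotypes. Those past the threshold have all library values there, and the others have levels, counts or fold changes. In the other comparisons most genes not past the threshold enter only as counts and medians. From each further list at most 4 genes past the threshold are named per direction and comparison. From some lists, such as the interferon-stimulated genes, none is named. The order of animals and the helicase ratios were picked after their values were seen. Alternatives were RLE factors, DESeq2 1.42.0, limma-voom (limma 3.58.1), no filter, at least 1 CPM in 3 libraries, age as covariate, all 12 libraries, the animal as replicate block, and each library left out. Libraries of both tissues carry the same animal number, age and genotype, and were taken as the same animal. Their deviations from the group mean correlated at 0.0034 to 0.0690. Libraries with different numbers of the same genotype correlated at -0.0549 to 0.0372, so the ranges overlap. The labels give no batch, litter or cage, so none of these could be entered in a fit. Each p-value sets a difference between groups against the spread between animals within groups, and does not cover such factors. Trac, Trbc1, Ly6g and Epb42 were not matched by symbol.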

Additional observations from a re-analysis of the deposited data

How the results depend on the processing

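No value of the 42 genes changed sign while past the threshold. In liver the count of 6 genes higher was 13 with DESeq2, 13 in the fit of all 12 libraries and 2 with age as a covariate (the 4 lost kept fold changes of 1.08 to 2.18, at adjusted p of 0.0533 to 0.0719), and stayed within 1.5 times of 6 with RLE factors (6), limma-voom (4), no filter (8) and a minimum of 1 CPM (6); 0 were lower under each. Leaving out 1 liver gave 0 to 10 genes higher. Over all genes in liver, 243 were higher and 31 lower with age as a covariate, 763 and 294 in the fit of all 12 libraries, and 244 lower with DESeq2; leaving out 1 liver gave 81 to 242 higher and 3 to 78 lower. In gastrocnemius DESeq2 called 1 of the 42 higher (Ccnd1), and over all genes 168 higher and 106 lower; the fit of all 12 libraries called 15 higher and 5 lower, and leaving out 1 library gave 0 to 2 of the 42 (Ccnd1 and Cenpf, both without R135W animal 5), 1 to 86 genes higher and 2 to 31 lower. For the difference between tissues DESeq2 called 3 of the 42, and 106 genes higher and 78 lower in all, limma-voom 7 and 0; leaving out 1 animal gave 0 of the 42, 1 to 6 genes higher and 0 to 2 lower. In WT, leaving out 1 animal gave 13 to 17 of the 42 higher in liver and 7 to 8 lower. The cause of these changes was not tested, beyond the smaller number of libraries in each fit that leaves one out.

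With the animal as replicate block, pairing the tissues, the difference between tissues passed for 0 of the 42 and, over all genes, for 13 higher and 3 lower; the tissue difference in WT passed for 16 of the 42 higher and 7 lower. It changed no call other than those of Mcm6, Plk1 and Gins1.

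Few counts limit the mitosis genes: 13 of the 42 were too scarce for the test in gastrocnemius and 2 in liver, and 3 animals per group leave wide errors. Genes with shared exons (7 of the 42) may hold counts of their neighbours. The order of animals in the mitosis genes was noticed in the data. In liver the red cell sum had the same lowest and highest animals in each genotype. The interferon-stimulated sum was also lowest in R135W animal 5 and WT animal 9, but highest in R135W animal 12 and WT animal 8. Age ran in opposite directions, with the youngest liver highest in R135W and lowest in WT for most mitosis genes. The parts of age, red cell genes and interferon-stimulated genes were not tested.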
